A study of Mus musculus with 11 samples.

Results

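A set of 8 genes that mark the proximal small intestine or carry iron and calcium across its epithelium were looked up by symbol in a table of 11366 genes, and 5 were found, Gata4, Lct, Slc11a2, Slc40a1 and S100g. Cybrd1, Trpv6 and Pdx1 were not analysed here. In RefSeq (GRCm38.p6) Gata4 lies at chr14:63198914-63271712, Lct at chr1:128284756-128328318, Slc40a1 at chr1:45908070-45926532, Slc11a2 at chr15:100387898-100424209 and S100g at chrX:162961992-162964599. All 5 passed the filter on low values (RPKM 1 or more in 3 or more libraries). The samples were epithelial cells from the small intestine of wild-type (WT) mice, sorted as live CD45-CD31-EpCAM+CD44- cells. The Control group (3 libraries) received standard chow and no treatment. The NFF group (4 libraries) received chow low in fermentable fiber and no treatment, and the SFB group (4 libraries) received standard chow and was colonized with SFB, read here as segmented filamentous bacteria. The labels give neither the segment of the small intestine nor the animal behind each library. All p-values therefore describe spread between libraries, part or all of which may be technical.

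The small intestine is patterned along its length. In the duodenum and jejunum, the transcription factor GATA4 helps to keep enterocytes in a proximal state, with lactase at the brush border, whereas the ileum takes up bile acids and vitamin B12. Non-heme iron enters duodenal enterocytes through the divalent metal transporter DMT1 (Slc11a2) after reduction at the brush border by duodenal cytochrome b (Cybrd1), and leaves through ferroportin (Slc40a1). Calcium enters through TRPV6, crosses the cytosol bound to calbindin-D9k (S100g) and is pumped out by plasma membrane calcium ATPases under the control of vitamin D.

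The Lct promoter is shown because Lct had the widest range of the 5 genes, and because GATA4 and the caudal factor CDX2 are known to act on it. It covers the 250 bases before the RefSeq start site on the minus strand, chr1:128328319-128328568 (GRCm38.p6), and capitals mark matches on either strand to the motif GATAA or to either CDX motif named below the sequences.
Lct promoter: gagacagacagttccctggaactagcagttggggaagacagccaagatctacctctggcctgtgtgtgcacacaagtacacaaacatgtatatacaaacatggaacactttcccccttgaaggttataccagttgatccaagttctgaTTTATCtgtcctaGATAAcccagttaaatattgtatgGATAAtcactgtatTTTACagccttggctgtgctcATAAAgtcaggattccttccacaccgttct
S100g promoter: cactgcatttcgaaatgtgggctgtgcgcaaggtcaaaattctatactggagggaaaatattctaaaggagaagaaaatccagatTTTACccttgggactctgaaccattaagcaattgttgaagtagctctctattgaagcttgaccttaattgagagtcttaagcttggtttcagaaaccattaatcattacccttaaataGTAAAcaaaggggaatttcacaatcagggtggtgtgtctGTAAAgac
The S100g window is chrX:162964600-162964849, also on the minus strand. GATAA, the core of the GATA motif, occurred 3 times in the Lct window, starting 101, 89 and 65 bases before the start site, and the first match overlaps a TTTAT. Among 32817 promoter windows of the same length, 22.6% held at least 1 GATAA and 0.713% held 3 or more. TTTAC, a form of the CDX motif found in the lactase promoter, occurred 3 times in the S100g window and 1 time in the Lct window, and 1.06% of windows held 3 or more. TTTAT occurred 2 times in the Lct window, where 37.3% of all windows held at least 1 and 14.3% held 2 or more. The S100g window held no GATAA and no TTTAT, which says only that these letters are not in these 250 bases.

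Iron-responsive elements are shown because they set apart the 2 sides of iron handling. They are hairpins bound by iron regulatory proteins when iron is low. In a 5′ UTR the bound element blocks translation, and in a 3′ UTR it stabilizes the transcript, so that gene-level RNA reads only part of this control. The search was for a C, 5 bases, CAGTGN and 5 bases that pair with the first 5 (G-U pairs allowed), on the sense strand of coding transcripts. Capitals mark the bulged C and the CAGTG of the loop.
Slc40a1, 5′ UTR: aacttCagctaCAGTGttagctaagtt
Fth1, 5′ UTR: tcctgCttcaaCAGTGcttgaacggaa
Ftl1, 5′ UTR: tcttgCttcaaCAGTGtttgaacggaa
Tfrc, 3′ UTR: attatCggaagCAGTGccttccataat
The Slc40a1 element lies at chr1:45925466-45925492 on the minus strand (GRCm38). Such a match was found anywhere in a transcript, coding sequence included, in 294 of 21901 coding genes (1.34%). The share of genes with a match in a UTR was not computed. A match in a UTR occurred 4 times in the 3′ UTR of Tfrc, the transferrin receptor gene, and 1 time in each of the ferritin genes Fth1 and Ftl1. The search found no match in a UTR of Epas1 or of Slc11a2, whose transcripts the deposited gene-level values do not separate. Because it required 5 unbroken pairs, the search misses elements with a further bulge or mismatch. The lack of a match therefore does not mean that a gene has no such element.

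Control 2 stood apart before any comparison of groups. In this library 18 of 23 proximal genes were at their highest of the 11 libraries, where 8.93% of all 10482 tested genes were, and 15 of 23 distal genes were at their lowest (17.0% of all tested genes). Apoa4, an apolipoprotein gene of the jejunum, stood at 2189 RPKM in Control 2 and at 15.5 to 251 in the other 10 libraries. Fabp1, a fatty acid binding protein gene, stood at 2665 against 20.4 to 581. Fabp6, the ileal bile acid binding protein gene, stood at 146 RPKM in Control 2 against 1762 to 4352 elsewhere, and Slc10a2, the ileal bile acid transporter gene, at 0.673 against 13.1 to 53.3. Fgf15, the ileal hormone gene, was near 0 in Control 2 (0.05 RPKM) and at 1.39 to 106 elsewhere.

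SFB 4 stood apart in another way, low on both lists. There 19 of 23 proximal genes were at their lowest of the 11 libraries (16.1% of all tested genes), as were 6 of 23 distal genes, and 19 of 21 crypt and proliferation genes were at their highest (33.3% of all tested genes). The mean deviation of the proximal list from its average over libraries was 1.73 in Control 2, -1.55 in SFB 4 and between -0.43 and 0.38 in the other 9 libraries, on the log2(RPKM + 1) scale. For the distal list it was -1.37, -1.05 and between 0.03 and 0.54. The epithelial markers Epcam (489 to 670 RPKM), Vil1 (311 to 620), Cdh1 (146 to 240) and Krt8 (1956 to 2682) were high in all libraries. The markers Krt20 (653 to 1523 RPKM), Alpi (75.6 to 423) and Fabp2 (711 to 2659) were lowest in SFB 4, as was Vil1. Of 17 leukocyte and stroma markers, 2 were found. Ptprc, the pan-leukocyte gene, stood between 0.247 and 2.48 RPKM. Lyz2, a lysozyme gene of macrophages, stood between 1.34 (SFB 2) and 50.6 (Control 2), where Ptprc stood at 0.757. The Paneth cell genes Lyz1 (28.1 RPKM) and Defa24 (201) were lowest in SFB 2 as well. Defa24 was highest in Control 2 (7843) and Lyz1 in Control 4 (5267). Which cells gave the Lyz2 values was not tested. The stomach mucin Muc6, 1 of 18 pancreas and stomach markers looked up and the only one found, did not exceed 0.864 RPKM. Of 12 colon genes looked up, 7 were found, with a mean deviation between -0.43 (NFF 4) and 0.45 (SFB 2). The 7 include Krt20, which was high in all libraries, so this deviation compares libraries and does not measure colon content.

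**Figure D1:**
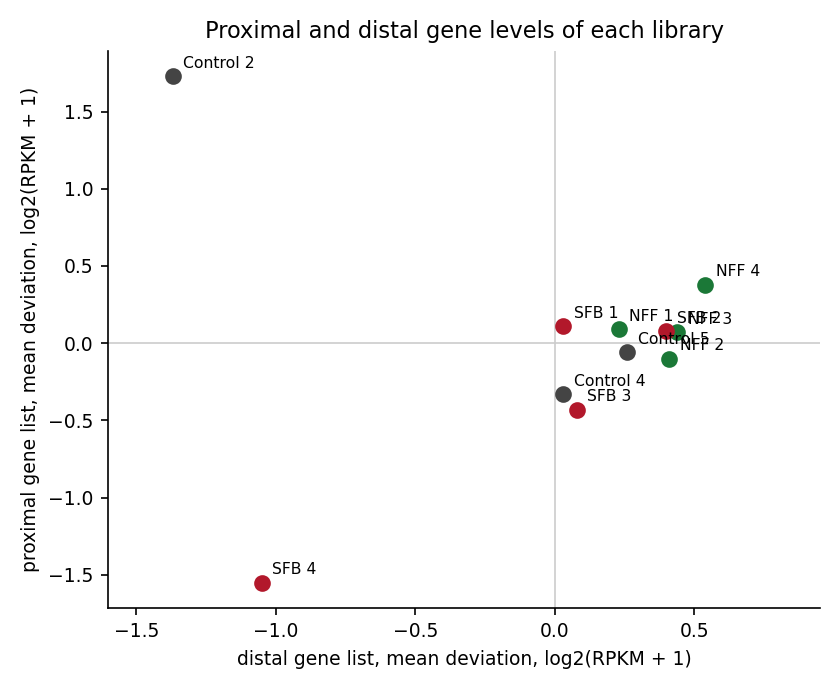
Mean deviation of 23 proximal genes (vertical axis) against that of 23 distal genes (horizontal axis), each from its average over 11 libraries, in log2(RPKM + 1); 1 point per library, black for Control, green for NFF and red for SFB. Control 2 lies at 1.73 and -1.37, SFB 4 at -1.55 and -1.05, and the other 9 libraries lie close together.

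Gata4, which encodes the proximal transcription factor, was highest in Control 2. Its level was 28.0, 12.5 and 12.1 RPKM in Control 2, 4 and 5, then 12.7, 7.5, 13.5 and 8.04 in NFF 1 to 4, and 14.0, 13.9, 9.86 and 15 in SFB 1 to 4. Control 2 was 2.22 times the median of the other libraries, and the remaining groups overlapped. Means ran from 17.5 ± 9.08 (SD, n = 3) for Control through 13.2 ± 2.27 (SD, n = 4) for SFB to 10.4 ± 3.11 (SD, n = 4) for NFF, and neighbours in this order did not differ beyond their spread.

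Lct, the brush border lactase gene, spanned the widest range, 39.4-fold from SFB 4 to Control 2. It stood at 106, 14.6 and 35.7 RPKM in Control 2, 4 and 5, at 78.1, 40.9, 58.7 and 49.6 in NFF 1 to 4, and at 32.3, 21.7, 9.63 and 2.69 in SFB 1 to 4. Every SFB library was below every NFF library. Control 2 (106) lay above both ranges, Control 5 (35.7) between them and Control 4 (14.6) within that of SFB. The standard deviation of Lct over the 11 libraries, 1.40 on the log2 scale, exceeded that of 99.4% of tested genes. In order of group means, NFF (56.8 ± 15.9, SD, n = 4) and Control (52.1 ± 47.9, SD, n = 3) did not differ beyond their spread, and SFB was at 16.6 ± 13.1 (SD, n = 4).

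Slc11a2, the iron importer gene, was nearly level across all libraries. It stood at 11.9, 12.6 and 12.5 RPKM in Control 2, 4 and 5, at 13.9, 12, 11.4 and 10 in NFF 1 to 4, and at 13.0, 14.4, 10.8 and 11 in SFB 1 to 4. The 3 groups overlapped fully, and the highest library was 1.44 times the lowest. Only 11.3% of tested genes varied less (standard deviation 0.14 on the log2 scale, against a median of 0.24 over all tested genes). Its exons overlap those of Gm5475 on the opposite strand, and these libraries do not separate the strands. Unlike Gata4, Lct and S100g, Slc11a2 was not raised in Control 2, at 0.975 times the median of the other libraries.

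Slc40a1, the iron exporter gene, ran opposite to Lct and Gata4 in Control 2. It stood at 2.37, 21.8 and 9.57 RPKM in Control 2, 4 and 5, at 7.85, 8.18, 7.72 and 4.66 in NFF 1 to 4, and at 8.57, 11.9, 18.7 and 22.9 in SFB 1 to 4. Control 2 was the lowest of all libraries and SFB 4 the highest, a 9.70-fold range. Every SFB library exceeded every NFF library, although SFB 1 (8.57) and NFF 2 (8.18) were close. By mean, SFB (15.5 ± 6.49, SD, n = 4) stood above Control (11.2 ± 9.83, SD, n = 3), which stood above NFF (7.10 ± 1.64, SD, n = 4), and neighbours in this order did not differ beyond their spread.

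S100g, the calbindin-D9k gene, followed Gata4 in being highest in Control 2. Its levels were 18.6, 10.5 and 8.32 RPKM in Control 2, 4 and 5, 7.60, 4.59, 6.74 and 10.1 in NFF 1 to 4, and 7.0, 11, 7.16 and 6.47 in SFB 1 to 4. Control 2 was 2.52 times the median of the other libraries, and the groups otherwise overlapped. The order of means was Control (12.5 ± 5.42, SD, n = 3), SFB (7.91 ± 2.10, SD, n = 4), NFF (7.26 ± 2.27, SD, n = 4), and neighbours in this order did not differ beyond their spread.

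**Figure D2:**
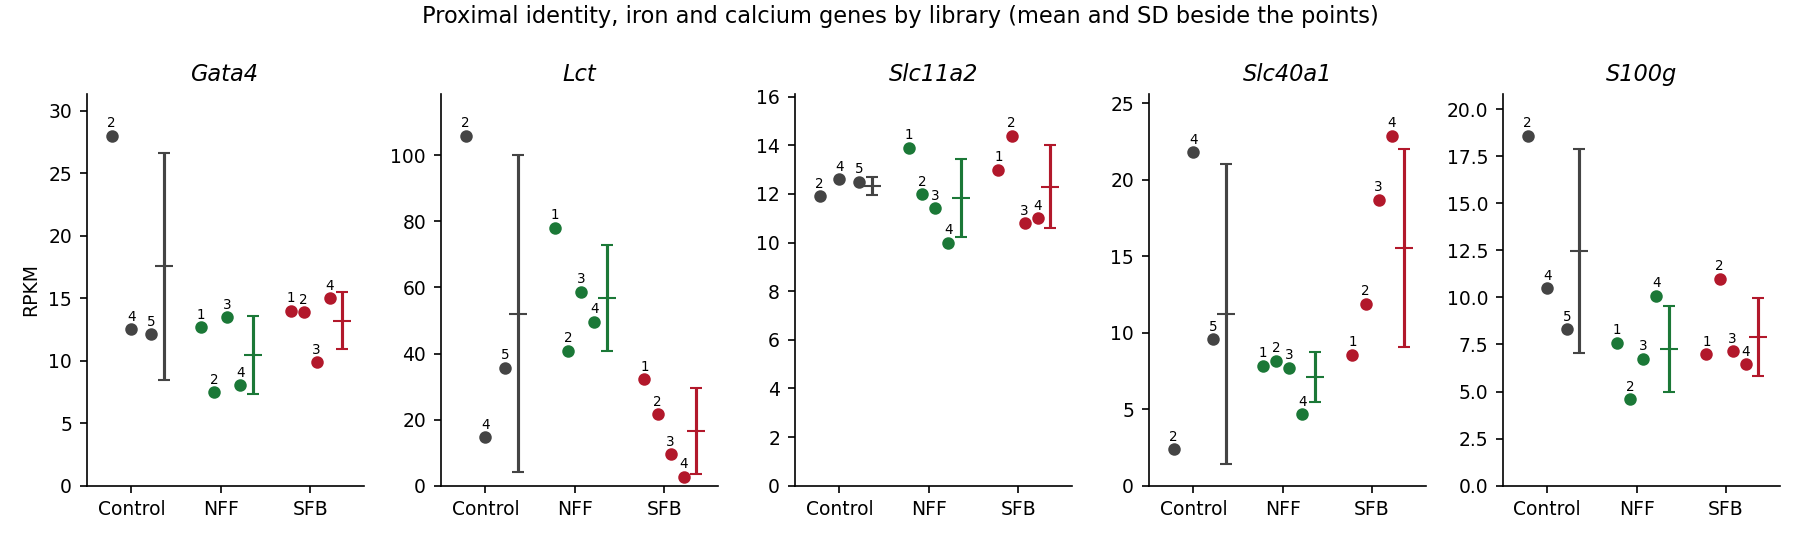
RPKM of each of the 5 genes (vertical axes from 0) in each library, grouped as Control (n = 3), NFF (n = 4) and SFB (n = 4); numbers above the points are replicate numbers, and the bar beside each group is its mean and SD. Control 2 is the highest library for Gata4 (28.0), Lct (106) and S100g (18.6) and the lowest for Slc40a1 (2.37), while Slc11a2 stays between 10 and 14.4.

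Averaged over the 5 genes, the deviation of each library from the mean over libraries ran from 0.46 in Control 2 through 0.24 in NFF 1, 0.12 in SFB 2, 0.10 in Control 4, 0.09 in NFF 3, 0.05 in Control 5 and 0.00 in SFB 1 to -0.15 in NFF 4, -0.23 in NFF 2, -0.26 in SFB 3 and -0.42 in SFB 4. Control 2 stood highest and SFB 4 lowest in this order, which rests on Lct. Because Slc40a1 moved the other way, Control 2 stood at 0.99 and SFB 4 at -0.81 when that gene was left out. Without Lct, Control 4 (0.36), SFB 2 (0.25) and SFB 4 (0.24) stood above Control 2 (0.12), so that Control 2 ranked 4 and SFB 4 ranked 3 of 11. The gap between Control 2 and the median of the other libraries was then 0.14, where it was 0.44 over the 5 genes. The 3 groups overlapped in this order, so the 5 genes did not separate them along the intestine.

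Across the 11 libraries only Gata4 had a negative relation to the mean level of the 23 distal genes that passed the test. Its Pearson correlation was r = -0.77 (permutation p = 0.00219, adjusted p = 0.0109 over the 5 genes) and its Spearman correlation rho = -0.64 (permutation p = 0.0399, adjusted p = 0.199). Without Control 2 and SFB 4, the libraries farthest from the median distal level, r was -0.40 (exact permutation p = 0.289, n = 9), so the relation rests on those libraries. The other values of r against the distal level were 0.21 for Lct, 0.09 for Slc40a1, 0.13 for Slc11a2 and -0.44 for S100g (permutation p = 0.181 for S100g, adjusted p = 0.451).

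Lct and Slc40a1 followed the proximal list in opposite directions, in relations chosen after the data were seen and adjusted over the 10 relations added in this way. Lct was higher where the 23 proximal genes were higher (r = 0.86, permutation p = 4.4e-04, adjusted p = 0.00147; rho = 0.76, permutation p = 0.00845), whereas Slc40a1 was lower there (r = -0.89, permutation p = 2.0e-05, adjusted p = 2.0e-04; rho = -0.83, permutation p = 0.00262). Without Control 2 and SFB 4 the values were 0.75 for Lct (exact permutation p = 0.0193, adjusted p = 0.0644, n = 9) and -0.90 for Slc40a1 (exact permutation p = 0.00222, adjusted p = 0.0222, n = 9), so the relation of Lct no longer passed after adjustment. Values for the other genes were 0.68 for S100g (0.17 without those libraries), 0.43 for Gata4 and 0.13 for Slc11a2.

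The same genes moved with the level of 21 crypt and proliferation genes. Lct was lower where that list was higher (r = -0.92, permutation p = 1.6e-04, adjusted p = 8.0e-04; rho = -0.85, permutation p = 0.00178), and Slc40a1 was higher (r = 0.82, permutation p = 0.00147, adjusted p = 0.00367; rho = 0.86, permutation p = 0.00123). Without SFB 4 and Control 4, the libraries farthest from the median of this list, r was -0.81 for Lct (exact permutation p = 0.0063, adjusted p = 0.0315, n = 9) and 0.71 for Slc40a1 (exact permutation p = 0.0263, adjusted p = 0.0656, n = 9), so the relation of Slc40a1 no longer passed after adjustment. The proximal and crypt lists were themselves related (r = -0.75), so their parts in the levels of Lct and Slc40a1 cannot be told apart here. The proximal and distal lists had r = -0.12 over the 11 libraries and 0.66 without Control 2 and SFB 4, so among the other 9 libraries they tended to be high or low together. Without those libraries the proximal and crypt lists had r = -0.73 and the distal and crypt lists -0.81. Groups of 3 or 4 libraries are too small for a correlation within a group. The summed level of the crypt list was 78.6 to 255 RPKM in Control, 60.5 to 90.1 in NFF and 127 to 560 in SFB. Every SFB library was thus above every NFF library in this sum, as in Slc40a1, and below every NFF library in Lct. The permutations shuffled libraries across groups, so the p-values of these relations take in the differences between groups. In bulk samples, fewer cells of a type and less RNA per cell cannot be told apart.

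**Figure D3:**
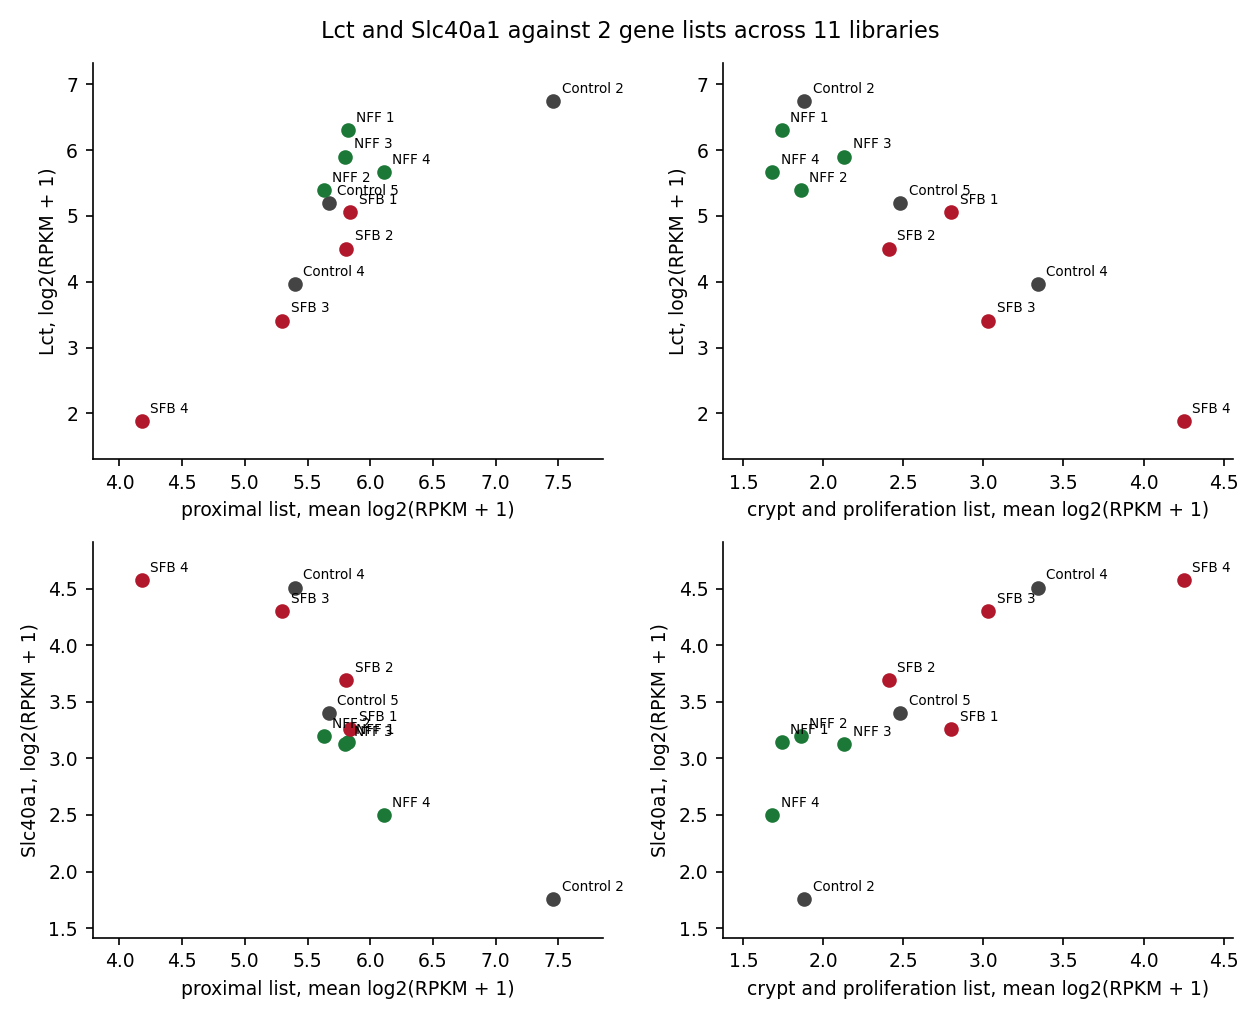
Lct (top row) and Slc40a1 (bottom row), in log2(RPKM + 1), against the mean log2(RPKM + 1) of 23 proximal genes (left column) and 21 crypt and proliferation genes (right column); 1 point per library, black for Control, green for NFF and red for SFB. Lct climbs with the proximal list (r = 0.86) and drops with the crypt list (r = -0.92), and Slc40a1 does the reverse (r = -0.89 and 0.82).

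Among the 5 genes, Lct and Slc40a1 had r = -0.88 over the 11 libraries and Gata4 and S100g r = 0.67, as descriptions. By the fixed rule, the genes with the pattern most like each of the 5, out of 7603 with a mean of at least 3 RPKM, were as follows. For Lct they were Slc25a45, a mitochondrial carrier gene (r = 0.980), Cda, cytidine deaminase (0.974), and Nab2, a corepressor of EGR factors (0.968). For Slc40a1 they were Nipsnap2 (0.963), Mreg (0.950) and Gnl2, a nucleolar GTPase gene (0.934). For Gata4 they were Eno1, the glycolytic enolase (0.945), Bpnt1 (0.936) and Chchd10 (0.930). For S100g they were the oxidative phosphorylation genes Cox7a2 (0.925), Ndufv3 (0.902) and Atp5j2 (0.891). For Slc11a2 they were Tmlhe, of carnitine synthesis (0.899), Gng12 (0.852) and Baiap2l1 (0.851). The mean deviation of the 5 genes was followed most closely by Ubl7 (0.925), Ugt2a3 (0.893), Fth1 (0.893), Cyp2c65 (0.889), Mfsd4b2 (0.889) and Sult1b1 (0.885), and opposed by Crnkl1 (-0.927), Fam219b (-0.927), Fbxw2 (-0.917), Adam17 (-0.888), Capn7 (-0.886) and Ints13 (-0.876). These are the extremes of many correlations over 11 libraries and carry no test.

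Between NFF and Control, which differ in diet, none of the 5 genes passed the test. Limma with Benjamini-Hochberg adjustment called 0 of the 10482 tested genes (percent called, 0), and 2 of the 5 had an unadjusted p under 0.05, where 4.82% of all genes did. The log2 differences were -0.68 ± 0.28 (SE) for S100g (limma adjusted p = 0.896, 95% interval -1.28 to -0.07) and -0.63 ± 0.29 for Gata4 (adjusted p = 0.896, interval -1.26 to 0.00). Without Control 2 these were -0.37 and -0.26. Lct differed by 0.51 (-1.06 to 2.08), Slc40a1 by -0.23 (-1.36 to 0.90) and Slc11a2 by -0.07 (-0.35 to 0.22). No gene of the 5 had groups that did not overlap (9.77% of all genes did). Without Control 2, the groups did not overlap for Lct (1.23) and Slc40a1 (-0.96), nor for 29.4% of all genes. Neither gene was called (limma adjusted p = 0.694 for both). Without Control 4, Lct turned to -0.16 and Slc40a1 to 0.42.

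SFB against Control compares colonization on the same chow, and again none of the 5 genes was called, where limma called 0.200% of tested genes. Lct had the lowest p, with a log2 difference of -1.59 ± 0.72 (SE; limma adjusted p = 0.406, 95% interval -3.16 to -0.02), and was the 1 gene of 5 with an unadjusted p under 0.05, against 12.1% of all genes. Its difference was -0.87 without Control 2, -0.98 without SFB 4 and -0.26 without both. S100g differed by -0.55 (-1.16 to 0.06), Gata4 by -0.30 (-0.93 to 0.33), Slc40a1 by 0.74 (-0.40 to 1.87) and Slc11a2 by -0.01 (-0.30 to 0.28). Slc40a1 stood at 0.00 without Control 2, and Gata4 turned to 0.08. All 5 genes overlapped between these groups, where 9.71% of all genes did not. None separated without Control 2 (14.6% of all genes) or without Control 2 and SFB 4 (35.7%).

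SFB against NFF differs in both diet and colonization and is secondary. None of the 5 was called here either, where 7.34% of tested genes were. Lct came nearest, at -2.10 ± 0.67 (SE; limma adjusted p = 0.0774, 95% interval -3.55 to -0.65), followed by Slc40a1 at 0.97 ± 0.48 (adjusted p = 0.229, interval -0.08 to 2.02). Both had groups that did not overlap, 2 of 5 genes against 20.0% of all genes (28.2% without Control 2 and SFB 4, with the count for the 5 again 2). Lct was the 1 gene of 5 with an unadjusted p under 0.05, against 25.7% of all genes. The fit without Control 2, a library that bears here on the error estimate alone, called Lct at -2.10 (limma adjusted p = 0.0448). The fit without Control 2 and SFB 4 called it at -1.49 (adjusted p = 0.0322). Both fits also called more of all tested genes than the main fit did, with counts given among the alternatives below. Gata4 differed by 0.34 (-0.25 to 0.92), S100g by 0.13 (-0.44 to 0.69) and Slc11a2 by 0.06 (-0.21 to 0.32). The comparisons share libraries, so their values are not independent of one another.

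**Figure D4:**
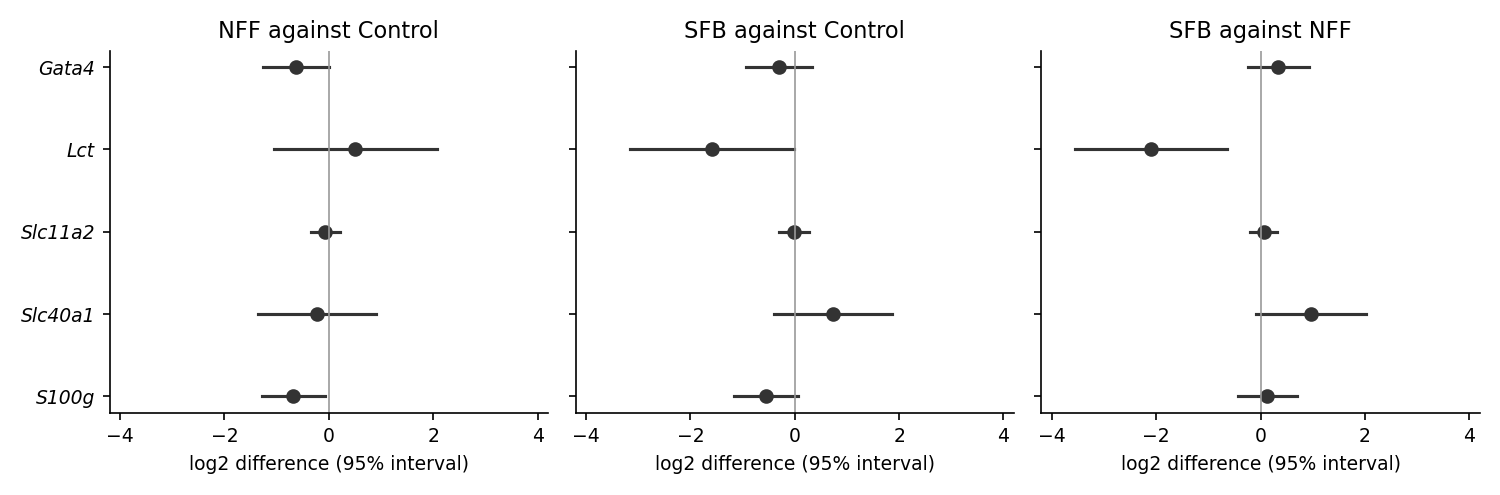
Log2 difference with its 95% interval from limma (horizontal axes, log2(RPKM + 1) scale) for each of the 5 genes in 3 comparisons, from 3 Control, 4 NFF and 4 SFB libraries. The intervals of Slc11a2 are the narrowest (-0.35 to 0.22 for NFF against Control), and Lct for SFB against NFF (-3.55 to -0.65) lies farthest from 0.

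Of 32 iron genes tested, 8 were highest in Control 2 (8.93% of all tested genes) and 2 lowest (17.0%). Slc46a1, the proximal transporter of folate and heme, stood at 36.1 RPKM in Control 2 and between 7.75 and 15 in the other 10 libraries. The ferritin genes Fth1 (290 against 162 to 230) and Ftl1 (299 against 214 to 274), which store iron, were also highest there. Heph, the ferroxidase hephaestin that works with ferroportin, stood at 29.4 RPKM in Control 2, within the range of 24.3 to 45.6 of the others. Tfrc, which takes up transferrin-bound iron and is high in dividing cells, stood at 52.4 in SFB 4, its highest library, and at 19.9 in Control 2. Epas1, which encodes HIF-2alpha, the hypoxia factor that drives iron uptake genes, was low everywhere, at 0.782 to 2.55 RPKM.

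Of 32 iron genes tested, 0 passed between NFF and Control (median log2 difference -0.07, against -0.01 over all genes; 2 had an unadjusted p under 0.05) and 0 between SFB and Control (-0.08 against 0.01; 3 unadjusted). Over all genes, 4.82% and 12.1% had an unadjusted p under 0.05 in these 2 comparisons. Between SFB and NFF 2 were higher and 1 lower in SFB (median -0.09 against 0.02), a count of 3 in 32 that is near the 7.34% called over all genes. Slc25a37, the mitochondrial iron carrier mitoferrin, fell from 12.1 ± 1.63 RPKM in NFF to 6.28 ± 0.994 in SFB (SD, n = 4 each; log2 difference -0.85, limma adjusted p = 0.00642). Hif1a rose from 7.64 ± 0.777 to 14.8 ± 4.48 RPKM (SD, n = 4 each; 0.84, limma adjusted p = 0.0171), a call lost without NFF 2 (adjusted p = 0.0592) or NFF 4 (0.0566) and with the replicate block (0.0656). Steap1, a metalloreductase family gene, rose by 1.33 (limma adjusted p = 0.0416), a call lost without any 1 of NFF 1 to 4, SFB 1, SFB 3, SFB 4 or Control 5 (up to adjusted p = 0.12 without NFF 2) or with the distal level as a covariate (0.0955).

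Of 18 calcium genes tested, 5 were lowest in Control 2, where S100g was highest (17.0% of all tested genes were lowest there). Atp2b1, the calcium pump that extrudes calcium, stood at 7.78 RPKM there, below the 13.1 to 19.4 of the other libraries, and Vdr, the vitamin D receptor gene, at 73.9, within the 58.0 to 107 of the others. Cldn2, a claudin that forms cation pores between cells, stood at 9.02 against 28.1 to 63.5, and Cldn12 at 3.59 against 4.14 to 7.30, whereas Cldn15 was highest in Control 2 (162 against 116 to 159). Trpm6, a magnesium channel gene, stood at 0.645 there against 0.828 to 5.10. Of 18 calcium genes tested, 0 passed between NFF and Control (median 0.09 against -0.01; 2 unadjusted, against 4.82% of all genes) and 0 between SFB and Control (0.08 against 0.01; 0 unadjusted, against 12.1%). Between SFB and NFF 1 of the 18 was lower in SFB (7.34% of all genes were called), Bmp1, a procollagen protease gene listed here for its link to vitamin D, which fell by 1.15 (limma adjusted p = 0.0329). That call was lost without any 1 of NFF 1 to 4, SFB 1, SFB 2 or SFB 4 (up to adjusted p = 0.0999 without NFF 4) with the replicate block (0.0736) and with the distal level as a covariate (0.0735).

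Of 22 regulators of regional identity, 4 were highest in Control 2 (8.93% of all tested genes) and 7 lowest (17.0%). Gata6, the relative of Gata4 found along the whole intestine, was highest in Control 2 (11.9 RPKM against 6.19 to 10), and Gata5 was lowest there (36.6 against 42.8 to 78.5). Onecut2, a duodenal factor gene, stood at 3.40 RPKM in Control 2 against 0.195 to 2.44. The intestinal factor gene Cdx2 stood at 69.8 in Control 2, within the 56.7 to 99.7 of the others, Hnf4a was lowest there (52.4 against 64.5 to 104) and Hnf4g highest (144 against 85.8 to 130). None of 22 regulators passed in any comparison by limma, with 1, 4 and 8 at an unadjusted p under 0.05 for NFF against Control, SFB against Control and SFB against NFF, where 4.82%, 12.1% and 25.7% of all genes were.

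**Figure D5:**
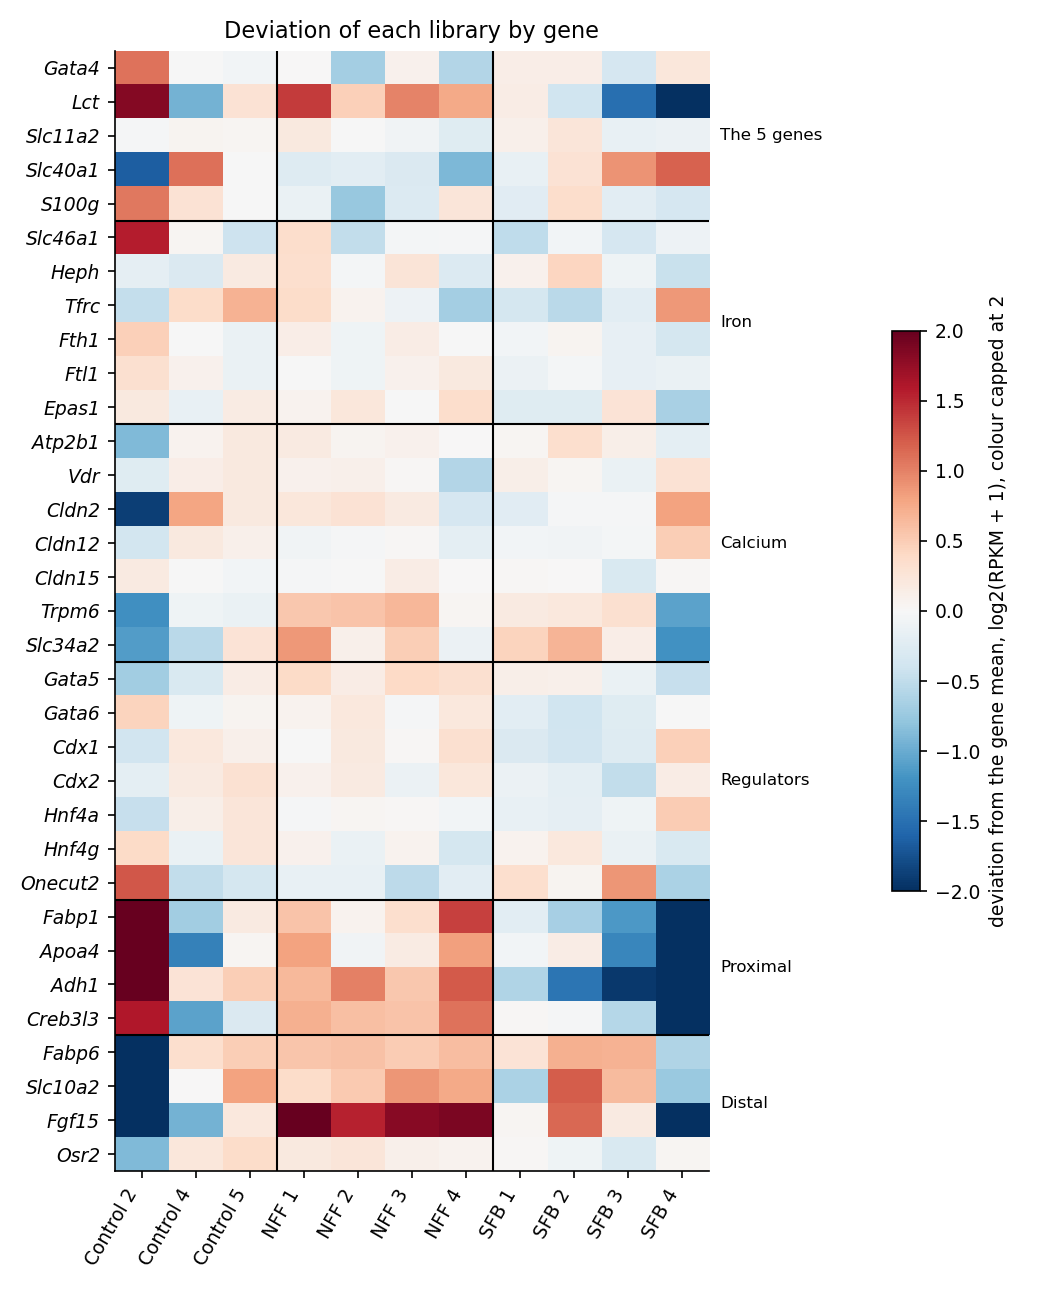
Deviation of each library (columns) from the mean of each gene (rows) in log2(RPKM + 1), red above and blue below the mean, colour capped at 2; vertical lines divide Control, NFF and SFB, and horizontal lines divide the 5 genes from iron, calcium, regulator, proximal and distal genes. Control 2 is red for Gata4, Lct, S100g, Slc46a1 and the proximal genes and blue for Slc40a1, Cldn2 and the distal genes, and SFB 4 is blue for both proximal and most distal genes.

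The proximal and distal lists themselves showed few calls, 1 and 2 of 23 between SFB and NFF, where 7.34% of all genes were called. Of 7 colon genes tested, 2 were called there, both higher in SFB. These were Car4 (log2 difference 0.94, limma adjusted p = 0.00555) and Muc4 (1.17, limma adjusted p = 0.00172). Muc4 was low, with means of 0.667 RPKM in NFF and 2.78 in SFB. None of the 7 passed in the other comparisons, and these calls were not examined under the alternatives. Of 23 proximal genes, 0 passed between NFF and Control (median -0.25 against -0.01 over all genes; 2 unadjusted) and 0 between SFB and Control (-0.85 against 0.01; 5 unadjusted). Between SFB and NFF 1 was called, lower in SFB (median -0.49 against 0.02; 6 unadjusted). That was Adh1, an alcohol dehydrogenase gene, at 17.6 ± 11.6 RPKM in SFB and 94.7 ± 21.6 in NFF (SD, n = 4 each; log2 difference -2.56, limma adjusted p = 0.0171), a call lost without NFF 2 (0.0574) or NFF 4 (0.0573). Of 23 distal genes, 0 passed between NFF and Control (0.73 against -0.01; 10 unadjusted) and 0 between SFB and Control (0.26 against 0.01; 0 unadjusted). Between SFB and NFF the distal median was also -0.49 (5 unadjusted), and on each list 18 of 23 genes were below 0. Over all genes, 4.82% (NFF against Control), 12.1% (SFB against Control) and 25.7% (SFB against NFF) had an unadjusted p under 0.05. Control 2, where 15 of the 23 distal genes were lowest, is 1 of the 3 Control libraries, and its part in the medians against Control was not tested. Cubn, the ileal vitamin B12 receptor gene, was lower in SFB than in NFF by -1.93 (limma adjusted p = 0.0368) and Guca2a, guanylin, by -1.20 (adjusted p = 0.0437). The call of Cubn was lost without any 1 of NFF 1 to 4, SFB 2 or SFB 3, and that of Guca2a without any library but Control 2, Control 4 or SFB 2 with the replicate block (adjusted p = 0.131), by quantile normalization (0.161) and with the distal level as a covariate (0.0555).

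Beside lactase, 2 of 8 genes of sugar digestion and uptake were lower in SFB than in NFF, where 7.34% of all genes were called. In SFB 4, 8 of the 8 were at their lowest of the 11 libraries, as were 16.1% of all tested genes. Mgam, maltase-glucoamylase, differed by -0.88 (limma adjusted p = 0.0279) and Sis, sucrase-isomaltase, by -1.27 (adjusted p = 0.0305). The call of Mgam was lost without any 1 of NFF 1 to 3, SFB 2 or SFB 4, and that of Sis without any 1 of NFF 1 to 4 or SFB 3. Both were also lost with the distal level as a covariate (adjusted p = 0.0803 and 0.0898). In NFF against Control 0 of the 8 passed (2 unadjusted, against 4.82% of all genes), and in SFB against Control 0 (1 unadjusted, against 12.1%). The level of crypt and proliferation genes moved with this comparison as well (median log2 difference 1.29 for SFB against NFF, 4 of 21 called), as did that of secretory cell genes (-1.45, 6 of 18 called), against 7.34% of all genes called. Summed secretory levels were 17413 to 28553 RPKM in Control, 15067 to 20559 in NFF and 4742 to 16534 in SFB, and the part of either list in these results was not tested.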

How the data were processed

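Full-length cDNA libraries (SMART-seq v4 and NexteraXT, per the labels' protocols) were sequenced from sorted small-intestinal epithelial cells of 3 Control, 4 NFF and 4 SFB samples. The authors deposited RPKM values, reads scaled to gene length and library size, for 11366 genes, per the file headers. The submitters' processing notes list STAR and mm10. For counting and annotation, the method is not given in the sources used here, and the depth of each library is unknown. Neither kit marks the strand or adds molecular identifiers.

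Every log2 difference is on the log2(RPKM + 1) scale, which understates changes of low genes. The test covered 10482 genes, those that reached RPKM 1 in 3 or more libraries. Limma 3.58.1 (R 4.3.3) fitted the 3 group means over the 11 libraries, leaving 8 residual degrees of freedom, with trended eBayes variances, and a gene was called at a Benjamini-Hochberg adjusted p under 0.05 over all tested genes. Relations across libraries used a two-sided permutation test with 100000 resamples, or all orderings (exact) for 9 libraries. Libraries were shuffled without regard to group, so these p-values do not separate a relation from a difference between groups. The fit was tested on simulated data with known changes, in which each gene was drawn on its own. That test therefore says nothing of libraries that deviate across many genes at once, as Control 2 and SFB 4 did. Promoter sequences were taken from RefSeq (GRCm38.p6), which held an entry for 2 of the 5 genes, and iron-responsive elements from GENCODE M21 transcripts (GRCm38).

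Besides the 5 genes, the text names a fixed set of iron, calcium, regulator, proximal and distal genes, the called genes of each list described (at most 4 per comparison and list, by size of change), and the 3 genes nearest each of the 5 in pattern, with the 6 nearest and 6 farthest from their mean deviation, among genes whose mean RPKM reached 3. Genes of that set with no values in the text are not analysed here or gave nothing to add. The genes and lists were chosen with earlier results of these data known. Alternatives were 2 other pseudocounts, 2 other filters, 2 scalings, 2 variance priors, array weights, fits restricted to the pair of groups, a replicate block, the distal list's level as a covariate, and leaving out each library. Gene-by-gene weights, a fit without Control 2 and SFB 4, and the proximal and crypt lists as measures of comparison were added after the data were seen.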

Additional observations from a re-analysis of the deposited data

Results flagged for a closer look

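Slc40a1 in NFF 4 lay far below the other 3 NFF libraries, at 2.5 on the log2(RPKM + 1) scale (4.66 RPKM against 7.72 to 8.18). The gap to its nearest neighbour was 0.894 of the range of the group, above the limit of 0.829 for 4 samples. In all, 10 measures in 2 groups of 4 were examined in this way, 20 tests with this 1 flag, and chance flags about 1 in 20.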

How the results depend on the processing

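None of the 5 genes was called between NFF and Control or between SFB and Control under any alternative run. Between SFB and NFF, Lct was called with array weights (-0.86, limma adjusted p = 0.0267), with gene-by-gene weights (-1.08, adjusted p = 0.041), without Control 2 and without Control 2 and SFB 4 (1 gene of the 5 each, 0 to 1 over fits that leave out 1 library). Each of these fits also called more of all genes than the main fit, which called 769 of 10482 for SFB against NFF. Over all genes, array weights called 40 genes for NFF against Control, 1948 for SFB against Control and 4720 for SFB against NFF, from weights whose estimate stopped before it converged and that gave SFB 1 a weight of 22.1. The same counts were 4, 333 and 3017 with gene-by-gene weights, 44, 183 and 1255 without Control 2 and SFB 4, and 1 in each of the first 2 comparisons when only the groups compared were fitted. Quantile normalization gave 1173 and the distal level as a covariate 394 for SFB against NFF. Leaving out 1 library gave 0 to 8 (the latter without SFB 4), 7 (without SFB 2) to 94 (without SFB 4), and 240 (without NFF 2) to 994 (without Control 2). A replicate block, which pairs libraries by a number the labels do not explain, gave 0 for SFB against Control and 335 for SFB against NFF. Deviations of same-numbered libraries correlated at -0.17 and -0.28 (NFF and Control), 0.20 and 0.67 (SFB and Control) and -0.30 to 0.03 (SFB and NFF), and 0 of 4 SFB libraries correlated best with the NFF library of their number. The cause of these shifts was not tested.

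Of 375 values of the 5 genes under alternatives, 350 kept direction and side of the threshold and 21 turned direction, none of them called. For SFB against Control, Gata4 turned to 0.08 with array weights, 0.01 with gene-by-gene weights and 0.02 without Control 2 and SFB 4 (-0.50 to 0.08 leaving out 1 library), Slc40a1 to -0.12, -0.03 and -0.21, and Slc11a2 to 0.06, 0.06 and 0.01, or 0.03 by quantile normalization (-0.08 to 0.05 leaving out 1 library). Leaving out 1 library also gave -0.16 to 1.23 for Lct, -0.96 to 0.42 for Slc40a1 and -0.14 to 0.01 for Slc11a2 (NFF against Control), and -0.02 to 0.13 for Slc11a2 and -0.05 to 0.28 for S100g (SFB against NFF). The number of the 5 genes with groups that did not overlap was 0 to 2 for NFF against Control and 0 to 1 for SFB against Control. For NFF against Control it was 2 without Control 2 and SFB 4, where 29.4% of all genes did not overlap. For SFB against Control, S100g did not overlap without SFB 2, nor Lct without Control 4. Leaving out a library can only keep or raise the number of genes whose groups do not overlap. The share over all genes was not computed for those cases, so they are not read as a result about S100g or Lct. The count of genes related to the distal level, 1, was 0 with median ratio scaling, with quantile normalization and without Control 2 and SFB 4, and 0 to 1 leaving out 1 library (0 without SFB 4). The gap of Control 2 above the median library, 0.44, was 0.14 without Lct and 0.95 without Slc40a1. The unknown depth leaves counting error unmeasured.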
